A study of Homo sapiens with 32 samples.

Results

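The 36 genes described here were the enzymes and transporters of fatty acid oxidation together with well-known target genes of the peroxisome proliferator-activated receptors (PPARs). They were chosen by name as a pathway list and matched by gene symbol, and all 36 were found among the 18583 genes with values. The RNA came from HGrC1, an immortalized line of human granulosa cells, the cells that surround the oocyte in the ovarian follicle. Each of 4 separately thawed vials was split into a vehicle control with 0.05% DMSO and cultures that received 0.01, 0.1 or 1 µM perfluorooctane sulfonate (PFOS), renewed at each passage. RNA was taken after 6 and after 12 weeks, which gave 8 groups of 4 libraries, 32 in all. All groups grew in medium with 10% fetal bovine serum, for which the sample labels state 100 nM estradiol and the study's methods 100 nM testosterone. One line was used, so the 4 vials are replicate cultures of the same line and not separate donors.

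Long-chain fatty acids enter the cell through transport and binding proteins and are activated to acyl-CoA by acyl-CoA synthetases. The carnitine shuttle then carries them into the mitochondrion, where beta-oxidation removes acetyl units in a cycle of dehydrogenation, hydration, dehydrogenation and thiolysis. PPARs are nuclear receptors that bind fatty acids and, with retinoid X receptors, switch on many of these genes, and perfluoroalkyl acids such as PFOS are known to activate PPAR alpha in rodent liver. Granulosa cells use fatty acid oxidation to meet energy demand in the growing follicle and store lipid in droplets as a source of cholesterol for steroids.

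The libraries were of even depth, with 17907056 to 18553348 read counts each. The epithelial keratin KRT18 (2351 to 2831 TPM, a read abundance corrected for transcript length and depth), CDH2 (89.3 to 137.5 TPM) and WT1 (32.4 to 44.8 TPM) were well expressed. Of the granulosa markers listed, 13 had values and FSHR had none. Of the 13, 4 had group means under 1 TPM throughout. CYP19A1, the aromatase that makes oestrogen, reached at most 0.02 TPM, AMHR2 0.17 TPM and NR5A1 0.42 TPM. FOXL2 lay between 0.32 and 1.19 TPM. The other 9 had group means of at least 1 TPM in every group, among them AMH (10.2 to 17.6 TPM), FST (12.0 to 23.4), HSD17B1 (3.53 to 7.39), INHBA (1.67 to 6.06), STAR (0.58 to 2.95) and INHA (0.63 to 2.36). Of the 5 adipocyte genes listed, LEP and FABP4 were at 0 in all 32 libraries. In every group 4 of the 5 had a mean under 1 TPM. The list summed to 1.11 to 3.44 TPM, and CIDEC, which is on it, had the levels given below. The 5 fibroblast genes listed summed to 441 to 760 TPM and the 4 epithelial genes to 1718 to 2459 TPM. The liver genes ALB, AFP, AHSG and APOB together had at most 1 read in any of 8 libraries, those of the 6-week cultures without PFOS or with 0.01 µM. The other 24 libraries had 67 to 164 reads of them, except for 12-week control replicate 3 with 799. That library is named below wherever it decides a value. Over all 12 liver genes listed, of which 7 and 8 were at 0 in every library of those 6-week groups, the sums overlapped slightly, with 305 to 427 reads in the 8 libraries and 415 to 1709 in the others.

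The pathway was expressed throughout its steps, at levels spanning more than 100-fold on the length-corrected TPM scale. Mean levels here and in the next paragraph are over all 32 libraries, with both times and all exposures together. The highest member was ACADVL, the very long-chain acyl-CoA dehydrogenase of the mitochondrial inner membrane, with a mean of 286 TPM over the 32 libraries. It was followed by ETFB (186 TPM), a subunit of the flavoprotein that takes electrons from the acyl-CoA dehydrogenases, by the enoyl-CoA isomerase ECI2 (186 TPM) and by the short-chain hydratase ECHS1 (156 TPM). HADHA and HADHB, the alpha and beta subunits of the mitochondrial trifunctional protein, had means of 137 and 90.5 TPM. Their genes lie head to head on chromosome 2 (GRCh38.p14), HADHA at chr2:26190635-26244632 on the minus strand and HADHB at chr2:26244939-26290465 on the plus strand, with 306 bases between their starts.

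**Figure D1:**
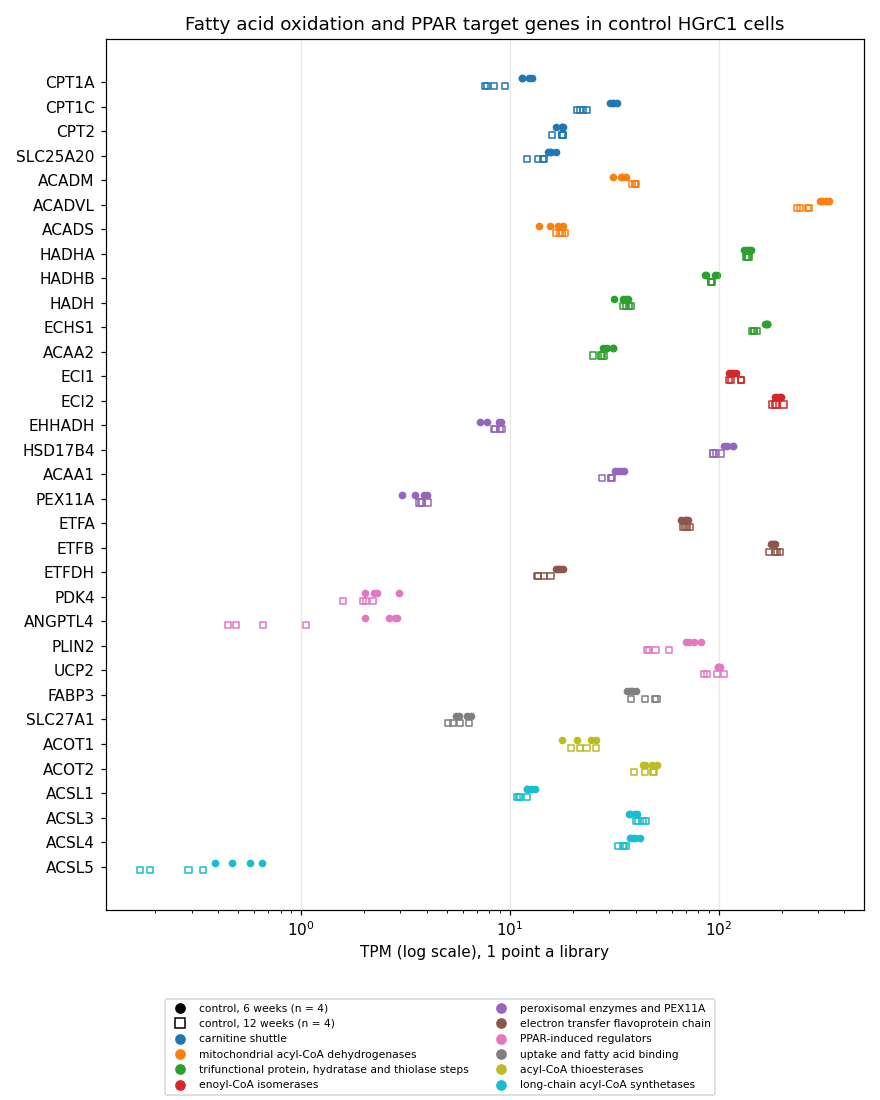
Levels of the 33 members that could be tested, in TPM on a log axis, with 1 point for each control library (filled circles, 6 weeks; open squares, 12 weeks) and colours for the steps of the pathway. ACADVL stood highest at both times, and ANGPTL4 and ACSL5 had the widest gap between 6 and 12 weeks.

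Within a step, levels differed widely between members. Of the members listed under the carnitine shuttle, CPT1C, the brain-type carnitine palmitoyltransferase 1, had a mean of 26.2 TPM. CPT1A, the liver-type enzyme that limits mitochondrial import, had 10.2 TPM. These RNA levels do not show what CPT1C contributes to import. The inner-membrane transferase CPT2 had 17.6 TPM and the carnitine-acylcarnitine carrier SLC25A20 14.1 TPM. Among the dehydrogenases, medium-chain ACADM had 36.9 TPM and short-chain ACADS 17.2 TPM. The peroxisomal pathway was led by the multifunctional enzyme HSD17B4 (103 TPM), with the thiolase ACAA1 at 31.7 TPM and the bifunctional enzyme EHHADH, a classic PPAR alpha target in liver, at 8.07 TPM. Of the long-chain acyl-CoA synthetases, ACSL3 (40.8 TPM) and ACSL4 (36.5 TPM) exceeded ACSL1 (11.5 TPM) and ACSL5 (0.402 TPM). Among genes that PPARs induce, the uncoupling protein UCP2 (102 TPM) and the lipid droplet coat protein PLIN2 (58.7 TPM) were abundant. PDK4, the kinase that shuts off pyruvate dehydrogenase when fat is burned, had 2.05 TPM, and ANGPTL4, a secreted inhibitor of lipoprotein lipase, 1.31 TPM. The remaining members with testable counts ranged from 3.79 TPM for PEX11A, a peroxisome division factor, to 116 TPM for the isomerase ECI1, whose libraries spread from 89.0 to 154 TPM. ACOT1 and ACOT2, cytosolic and mitochondrial acyl-CoA thioesterases, had 21.7 and 46.3 TPM. Their longest GENCODE transcripts are 97.8% identical over 1480 aligned bases, so the split of reads between them is uncertain, and their summed counts lay between 828 and 1062 in every library.

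The members too low to test were 3. ACADL, the long-chain acyl-CoA dehydrogenase, had 1 read in 1 of 32 libraries. CD36, the fatty acid translocase of muscle, fat and macrophages, had 0 to 7 reads per library, which is 0.21 TPM at most. FABP1, the liver fatty acid-binding protein, had 0 reads in all 8 control and 0.01 µM libraries at 6 weeks. In the other 24 libraries it had 1 to 5 reads in 12 and none in the rest, with the 5 reads in 12-week control replicate 3. These are the libraries in which the liver transcripts named above were present and absent, and their part in the FABP1 reads was not tested. A count of 0 in a single library allows up to 3 reads, for counting error only. FABP1 did not pass the filter on low counts, so a difference between groups was not tested.

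The comparison of PFOS with its control at each time addressed whether exposure changed these genes. The study chose its doses from the span of levels published for human serum and follicular fluid together. In the main fit, which has no term for the vial, none of the 33 testable members passed an adjusted p of 0.05 in any of the 6 comparisons. The test was edgeR's quasi-likelihood test with Benjamini-Hochberg adjustment over all genes. At 6 weeks the share of all genes called was 0% at 0.01 µM, 4.24% at 0.1 µM and 0.28% at 1 µM. At 12 weeks it was 0%, 1.07% and 0.22%. At an unadjusted p under 0.05, 3, 8 and 4 members were counted at 6 weeks and 3, 6 and 1 at 12 weeks, where the share of all genes was 9.6%, 20.8%, 13.7%, 8.48%, 15.4% and 8.75%. DESeq2 called 1 member, UCP2 at 1 µM and 6 weeks, and limma on log2(TPM + 1) called 0. With the vial as replicate block, edgeR called UCP2 at 0.1 and 1 µM and PLIN2 at 0.1 µM, all at 6 weeks.

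The intervals were narrow for most members. The 95% interval of the fold change lay within 1.5-fold in either direction for 31 or 32 of 33 members in each of the 6 comparisons, the exceptions being the lowly expressed ANGPTL4 and ACSL5. At 6 weeks, 30, 28 and 29 of 33 members were estimated within 10% of the control at 0.01, 0.1 and 1 µM, and at 12 weeks 28, 25 and 28. At 12 weeks more members lay below the control than above it, with 24, 27 and 24 of 33 below at 0.01, 0.1 and 1 µM. The median log2 fold changes were small, at -0.02, -0.07 and -0.05, where the medians of all genes rounded to 0.00 and 48.9%, 51.9% and 51.7% of genes lay below. The 3 exposures share the same 4 control libraries.

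**Figure D2:**
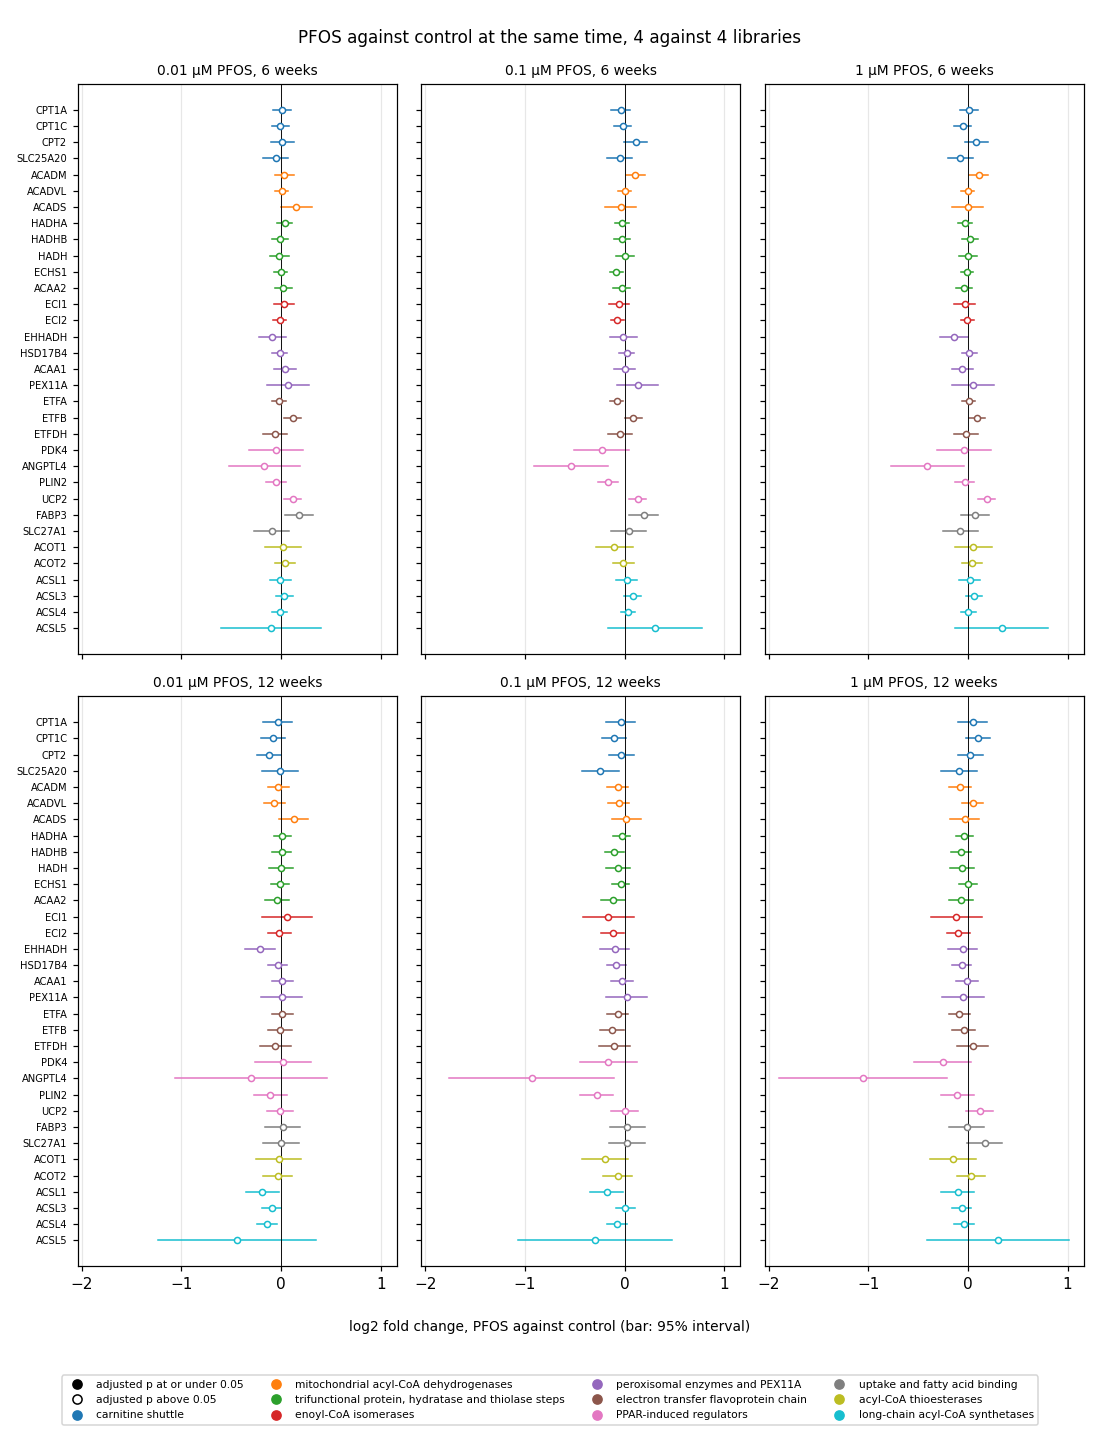
Log2 fold change of PFOS against the control of the same time for 33 members, 4 against 4 libraries, with 95% intervals and colours for the steps of the pathway. All symbols are open, since no member had an adjusted p at or under 0.05 in the main fit without the vial, and ANGPTL4 and ACSL5 have the widest intervals.

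UCP2 came closest to a call at 6 weeks. Its 4 control libraries had 99.5, 98.9, 100.5 and 101.3 TPM. At 1 µM the libraries had 106.4 to 113.4 TPM and at 0.1 µM 104.1 to 113.7 TPM, all above the control, and at 0.01 µM they overlapped it at 97.7 to 113.3 TPM. The log2 fold change was 0.19 at 1 µM (SE 0.0436, edgeR adjusted p = 0.0594) and 0.13 at 0.1 µM (SE 0.0437, adjusted p = 0.0774). With the vial as replicate block the adjusted p was 0.0187 at 1 µM and 0.0422 at 0.1 µM. After 12 weeks the control libraries had spread to between 85.2 and 106 TPM, and the groups overlapped at every dose.

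PLIN2, which coats lipid droplets and rises with fatty acid load, was lower at 0.1 µM at both times without passing the threshold. At 6 weeks the control libraries had 82.0, 75.8, 72.2 and 69.98 TPM and those at 0.1 µM 63.0 to 69.0 TPM. The log2 fold change was -0.16 (SE 0.0502, edgeR adjusted p = 0.0617, and 0.0254 with the vial as replicate block). At 12 weeks the control libraries had 45.5, 46.2, 57.9 and 49.9 TPM and those at 0.1 µM 38.1 to 44.6 TPM, with no overlap. The log2 fold change was -0.28 (SE 0.0860, edgeR adjusted p = 0.131), and the exact two-sided permutation test gave p = 0.0286, the smallest that 4 against 4 libraries allow. That permutation p follows from the lack of overlap alone and is not adjusted for the 33 members. PLIN2 was named for its low p in this comparison, so it adds no separate support. The highest of the 12-week control libraries was replicate 3, the one with the most liver transcripts, and without the replicate 3 libraries the log2 fold change was -0.14 (adjusted p = 0.736). At 1 µM and 12 weeks the sign of PLIN2 rested on the same replicate, with -0.10 on the log2 scale with it and 0.054 without it, neither of them called.

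ANGPTL4 had few reads, and its estimates were below the control at all doses and both times. Its reads at 6 weeks were 53, 39, 53 and 48 in the control, 58, 44, 38 and 32 at 0.01 µM, 36, 27, 38 and 31 at 0.1 µM, and 45, 38, 31 and 30 at 1 µM. The 0.1 µM libraries were all below the control libraries, and the other doses overlapped them. At 12 weeks the reads were 9, 13, 21 and 9 in the control, 15, 8, 12 and 7 at 0.01 µM, 13, 7, 4 and 3 at 0.1 µM, and 10, 5, 7 and 3 at 1 µM, with overlap at each dose. The log2 fold change at 0.1 µM was -0.53 at 6 weeks (95% interval -0.91 to -0.16, edgeR adjusted p = 0.102) and -0.93 at 12 weeks (-1.76 to -0.10, adjusted p = 0.299). At 1 µM it was -0.41 (-0.78 to -0.04, adjusted p = 0.337) and -1.05 (-1.89 to -0.21, adjusted p = 0.483). These 4 intervals, which are not adjusted for the number of genes, lay below 0, and none of the changes passed the threshold once adjusted over all genes. The highest 12-week control library was again replicate 3, and without the replicate 3 libraries the 12-week values were -0.42 at 0.1 µM and -0.78 at 1 µM. Without the replicate 1 libraries they moved the other way, to -1.59 and -1.50, and neither was called.

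The other members with the lowest p in a comparison differed from the control by small amounts. In the 6-week cultures ETFB was estimated 1.09-fold of the control at 0.01 µM (192 to 206 TPM against 179 to 187 TPM, edgeR adjusted p = 0.453). The heart-type fatty acid-binding protein FABP3 was 1.14-fold at 0.1 µM (42.1 to 43.9 TPM against 36.2 to 40.0 TPM, adjusted p = 0.125). Neither pair of groups overlapped. ACADM was 1.08-fold at 1 µM (32.9 to 37.1 TPM against 31.3 to 35.9 TPM, adjusted p = 0.329).

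In the 12-week cultures EHHADH was 0.864-fold of the control at 0.01 µM (6.80 to 8.30 TPM against 8.43 to 9.18 TPM, edgeR adjusted p = 0.565), with no overlap. ACSL4, which prefers arachidonic acid, was 0.908-fold at 0.01 µM (30.2 to 32.8 TPM against 33.1 to 35.9 TPM, adjusted p = 0.565). SLC25A20 was 0.844-fold at 0.1 µM (11.3 to 13.04 TPM against 12.1 to 14.6 TPM, adjusted p = 0.225). SLC27A1, a fatty acid transport protein with acyl-CoA synthetase activity, had the second lowest p at 1 µM after ANGPTL4 (5.78 to 6.96 TPM against 5.08 to 6.40 TPM) and was not called.

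More of these genes were called between the 2 times than under PFOS. Comparing 12 with 6 weeks, 14 of 33 members were called in the control (36.6% of all genes), 15 at 0.01 µM (42.7%), 15 at 0.1 µM (40.3%) and 13 at 1 µM (30.1%), so that the members' shares of 39.4% to 45.5% lay close to the background. Of the members called, 10 of 14, 12 of 15, 12 of 15 and 11 of 13 were lower at 12 weeks (71.4%, 80%, 80% and 84.6%), against 52.8%, 49.8%, 51% and 52.9% of all genes called. As shares of all genes tested, 19.3%, 21.3%, 20.6% and 15.9% were called lower, and of the members 30.3%, 36.4%, 36.4% and 33.3%. Over the 4 comparisons, 21 members (63.6%) were called at least once, close to the 62.9% of all genes. Of the 33 members, 8 (24.2%) fell in all 4 and 0 rose in all 4, against 9.87% and 6.68% of all genes, and 0 were called in opposite directions, against 0.269%. ANGPTL4 and ACSL5 were the 2 members that changed at least 2-fold in each comparison, which 3.32%, 3.49%, 3.83% and 3.09% of all genes did. Weeks of culture, passage number and the handling of the earlier and later libraries cannot be told apart here.

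**Figure D3:**
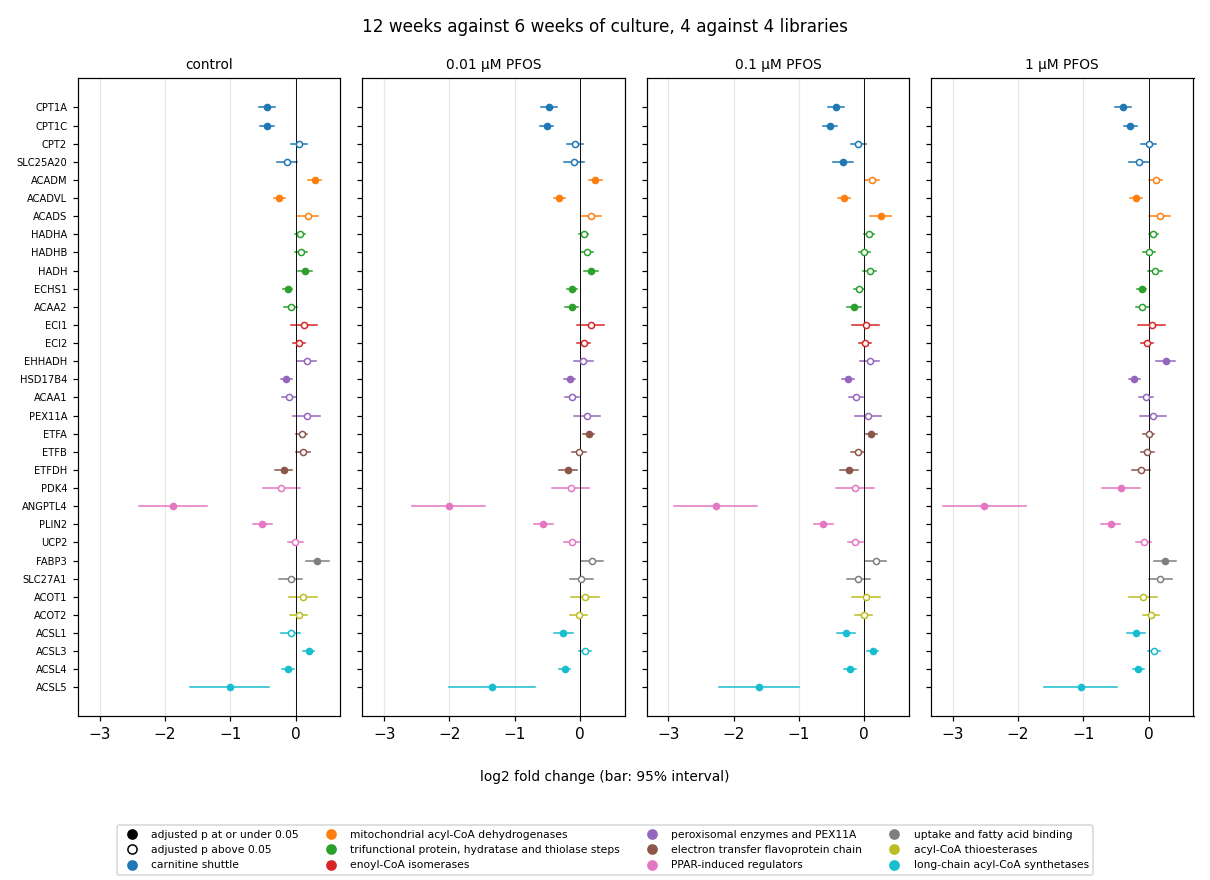
Log2 fold change of 12 against 6 weeks for 33 members in the control and at each PFOS dose, 4 against 4 libraries, with 95% intervals and filled symbols for an adjusted p at or under 0.05. ANGPTL4, ACSL5, PLIN2, CPT1A and CPT1C were lower at 12 weeks in all 4 panels.

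ANGPTL4 fell furthest. From 39 to 53 reads in the 6-week control libraries it dropped to 9 to 21 reads in the 12-week control libraries, and at 1 µM from 30 to 45 reads to 3 to 10 reads. The log2 fold change was -1.88 in the control (SE 0.267, edgeR adjusted p = 1.08e-06), -2.01 at 0.01 µM, -2.28 at 0.1 µM and -2.52 at 1 µM (SE 0.323, adjusted p = 2.41e-07). The libraries of the 2 times did not overlap in any exposure. PLIN2 fell from a mean of 75.0 ± 5.24 TPM (SD, n = 4) to 49.9 ± 5.71 TPM in the control, a log2 fold change of -0.51 (SE 0.0737, edgeR adjusted p = 2.11e-06), and its PFOS groups fell by between 0.56 and 0.63 on the log2 scale without overlap. PDK4, the third regulator with few reads, was called at 1 µM only, at 0.746-fold (adjusted p = 0.0269), and had 0.861-fold in the control (adjusted p = 0.245).

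Of the members listed under the carnitine shuttle, CPT1A and CPT1C fell in all 4 exposures. The inner-membrane carrier SLC25A20 fell in 1 of them and the inner-membrane transferase CPT2 in 0. CPT1A had 12.4, 11.5, 12.7 and 11.5 TPM in the 6-week control and 8.37, 7.62, 9.46 and 7.77 TPM in the 12-week control. All 16 of its 12-week libraries lay between 7.47 and 9.88 TPM and all 16 of its 6-week libraries between 11.1 and 12.9 TPM, so the times did not overlap. Its log2 fold changes ranged from -0.47 to -0.39 over the 4 exposures, with edgeR adjusted p from 1.6e-07 to 6.27e-06. CPT1C had 30.2, 32.6, 31.3 and 31.4 TPM in the 6-week control and 22.4, 21.0, 23.3 and 21.8 TPM in the 12-week control. It fell by 0.44 on the log2 scale in the control and by 0.51, 0.52 and 0.28 at 0.01, 0.1 and 1 µM, with edgeR adjusted p of at most 6.5e-05. SLC25A20 fell to 0.797-fold at 0.1 µM (edgeR adjusted p = 0.00122).

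The promoters of ANGPTL4, PLIN2 and CPT1A are shown because these are the established PPAR targets that fell in every exposure and whose RefSeq start matches the start of the gene in the annotation. Each line gives the 250 bases before the start in GRCh38.p14, 5′ to 3′ on the strand of the gene, at chr19:8363905-8364154 (plus strand), chr9:19127493-19127742 (minus strand) and chr11:68844278-68844527 (minus strand).
ANGPTL4: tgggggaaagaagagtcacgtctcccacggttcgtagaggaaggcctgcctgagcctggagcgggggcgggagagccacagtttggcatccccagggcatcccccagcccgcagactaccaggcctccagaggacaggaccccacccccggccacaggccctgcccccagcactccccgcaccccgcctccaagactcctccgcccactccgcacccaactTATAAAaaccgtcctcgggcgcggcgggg
PLIN2: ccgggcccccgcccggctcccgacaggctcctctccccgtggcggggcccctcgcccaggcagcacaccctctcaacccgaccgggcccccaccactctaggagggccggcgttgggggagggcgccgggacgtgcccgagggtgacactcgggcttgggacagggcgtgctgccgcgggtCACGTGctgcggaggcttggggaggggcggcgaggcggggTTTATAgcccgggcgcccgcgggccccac
CPT1A: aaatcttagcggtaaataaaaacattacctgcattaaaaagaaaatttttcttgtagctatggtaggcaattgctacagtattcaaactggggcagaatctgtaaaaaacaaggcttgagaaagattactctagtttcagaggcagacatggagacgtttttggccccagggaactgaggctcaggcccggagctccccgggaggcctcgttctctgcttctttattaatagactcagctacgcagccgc
Capitals mark matches, on either strand, to the TATA box TATAAA, found 29 bases before the start of ANGPTL4 and, on the opposite strand, of PLIN2, and to the E-box CACGTG, found 69 bases before the start of PLIN2. The direct repeat bound by PPAR with its partner, AGGTCANAGGTCA, and the hexamer AGGTCA that it repeats were searched as well, and neither lies in the 3 windows. Of 32 members with a RefSeq window, 0 hold the direct repeat and 2 the hexamer (FABP1 and ACSL5), where 0.018% and 12.19% of 27305 gene promoters hold them. The TATA box was in 5 of the 32 and in 11.2% of all, and the E-box in 1 of the 32 and in 6.46% of all. PPAR elements can lie outside such a window. Each window stands before the most upstream RefSeq start of its gene, and other starts were not searched. The GC content was 68.8% for ANGPTL4, 78.0% for PLIN2 and 44.4% for CPT1A.

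**Figure D4:**
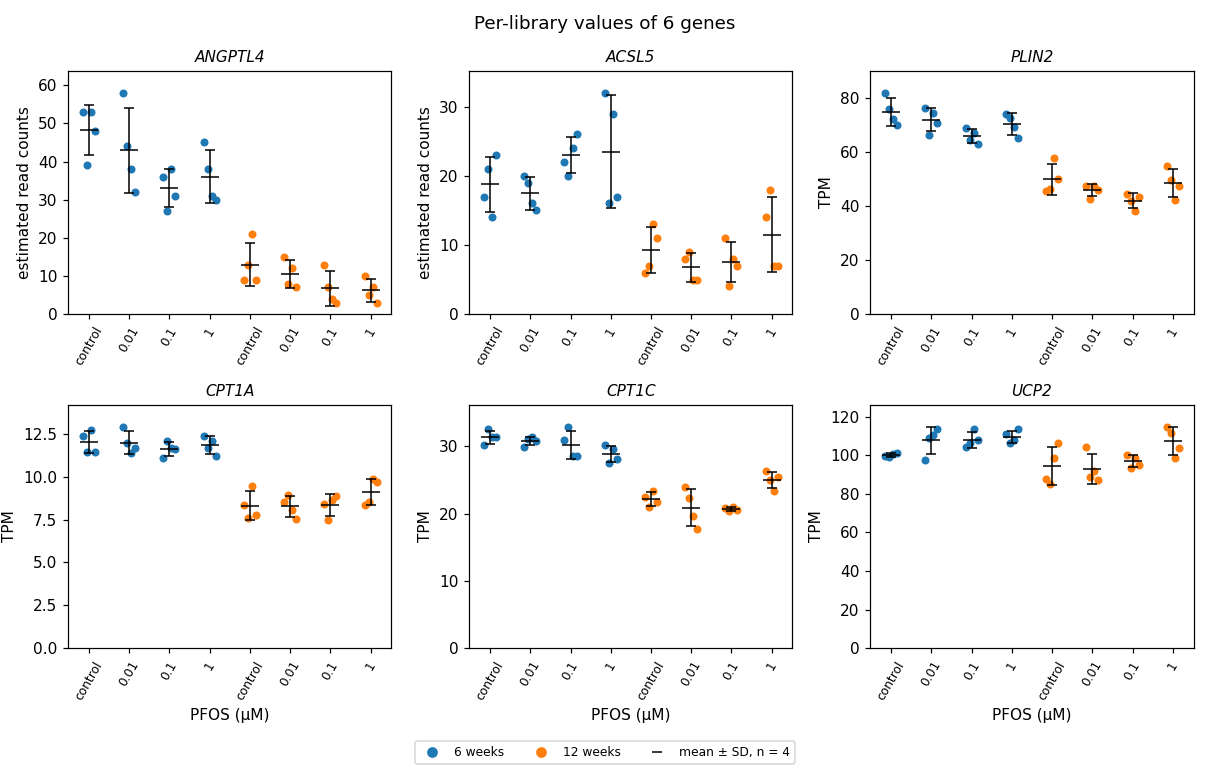
Values of 6 members in each library, as estimated read counts for ANGPTL4 and ACSL5 and as TPM for the others, against PFOS dose in µM at 6 weeks (blue) and 12 weeks (orange), with mean ± SD of 4 libraries in black. CPT1A lies between 11.1 and 12.9 TPM in all 6-week libraries and between 7.47 and 9.88 TPM in all 12-week libraries, and UCP2 has no such gap.

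The long-chain acyl-CoA synthetases, which activate fatty acids, moved in different directions. ACSL5, an isoform of intestine and mitochondria, fell from 17, 21, 14 and 23 reads to 6, 7, 13 and 11 reads in the control. Its log2 fold change was -1.01 (SE 0.308, edgeR adjusted p = 0.00981), and between -1.61 and -1.04 in the PFOS groups. This call depended on single replicates in the control and at 1 µM: without replicate 3 the 1 µM value was -0.75 (adjusted p = 0.113), and without replicate 2 the control value was -0.84 (adjusted p = 0.0646). ACSL4 fell in all 4 exposures, from 39.6 ± 1.93 to 34.8 ± 1.19 TPM (SD, n = 4) in the control, by 0.11 to 0.23 on the log2 scale. ACSL1 fell at the 3 PFOS doses, by 0.25, 0.28 and 0.19, and had 0.948-fold in the control (edgeR adjusted p = 0.425). ACSL3, the lipid droplet isoform, rose in the control, from 37.2, 40.8, 37.6 and 39.9 TPM to 43.3, 44.9, 41.3 and 40.4 TPM (1.15-fold, edgeR adjusted p = 0.000701), and at 0.1 µM (1.09-fold, adjusted p = 0.0247).

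Among the mitochondrial dehydrogenases, the very long-chain enzyme was called lower in all 4 exposures and the medium-chain enzyme higher in 2 of them. ACADVL had 324.9, 337.6, 306.0 and 311.6 TPM in the 6-week control and 245.6, 237.8, 271.8 and 268.3 TPM in the 12-week control, without overlap. Its fold change was 0.842 in the control (edgeR adjusted p = 3.56e-05) and 0.804, 0.807 and 0.874 at the PFOS doses, all called. ACADM rose from 34.5, 35.9, 31.3 and 34.2 TPM to 39.9, 39.7, 40.3 and 38.3 TPM in the control, 1.23-fold (adjusted p = 3.1e-05), and 1.18-fold at 0.01 µM. At 0.1 and 1 µM it was 1.09- and 1.08-fold and was not called (adjusted p = 0.0653 and 0.105). ACADS was called higher at 0.1 µM, 1.19-fold (adjusted p = 0.0112), and lay between 1.12- and 1.14-fold in the other exposures, without a call.

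The later steps of the mitochondrial cycle changed little. ECHS1 fell in 3 of 4 exposures, from 167.1 to 170.4 TPM in the 6-week control to 144.2 to 152.6 TPM in the 12-week control (0.921-fold, edgeR adjusted p = 0.0104). Folds come from counts scaled by TMM, and the ratio of TPM means can differ. For ECHS1 the control means were 169 ± 1.56 and 148 ± 3.51 TPM (SD, n = 4). The gap was not particular to ECHS1. In the control FABP3 was 1.26-fold with means of 38.2 and 45.6 TPM, and ACADM 1.23-fold with 34.0 and 39.6 TPM. Their TPM ratios also lay below the fold, which bears on all small changes between times. The hydroxyacyl-CoA dehydrogenase HADH rose in the control and at 0.01 µM, 1.11- and 1.12-fold, and the thiolase ACAA2 fell at 0.01 and 0.1 µM, to 0.917- and 0.896-fold. HADHA and HADHB were called in no exposure and stayed between 1.00- and 1.08-fold, and the isomerases ECI1 and ECI2 were not called either. Of the flavoprotein chain, ETFDH, which passes the electrons to ubiquinone, fell in the control and at 0.01 and 0.1 µM, to 0.881-, 0.884- and 0.847-fold. ETFA rose at 0.01 and 0.1 µM, 1.096- and 1.08-fold, and ETFB was not called. These small changes depended on the processing. Of 11 alternatives, ACAA2 kept its call in 2 at 0.01 µM and 9 at 0.1 µM, and ETFA in 7 and 3. HADH lost 9 of 22 calls over its 2 exposures, and ECHS1 and ETFDH lost 10 of 33 each over their 3.

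Of the peroxisomal members, HSD17B4 fell in all 4 exposures, from 117.4, 116.5, 109.1 and 106.4 TPM to 96.9, 102.1, 94.3 and 93.7 TPM in the control (0.906-fold, edgeR adjusted p = 0.0108) and to between 0.843- and 0.897-fold at the PFOS doses. EHHADH rose at 1 µM (1.197-fold, adjusted p = 0.00688) and was not called in the other exposures. ACAA1 and PEX11A were called in none. FABP3 rose in the control, from 38.5, 40.0, 37.8 and 36.2 TPM to 37.9, 49.8, 44.3 and 50.4 TPM with overlap (1.26-fold, edgeR adjusted p = 0.00272), and at 1 µM (1.195-fold, adjusted p = 0.0225). UCP2, SLC27A1, ACOT1 and ACOT2 were not called in any of the 4 exposures. The sum of ACOT1 and ACOT2 gave no exact permutation p under 0.342857 in any of the 10 comparisons.

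The change between 6 and 12 weeks was next compared between PFOS and control as an interaction over all 32 libraries. No member was called at any dose by edgeR, where 0%, 0.208% and 0.123% of all genes were called at 0.01, 0.1 and 1 µM. At an unadjusted p under 0.05, 0, 2 and 2 members were counted, where the share of all genes was 7.48%, 14.5% and 12.1%. DESeq2 called 0 members, and limma on log2(TPM + 1) called 1, CPT1C at 1 µM, named after its value was seen. Its fall was smallest at 1 µM, and the difference from the control's fall was 0.16 on the log2 scale (SE 0.0726, edgeR adjusted p = 0.385) and 0.29 by limma (adjusted p = 0.0475). ETFB had the lowest p, with a difference of -0.21 at 0.1 µM (SE 0.0748, edgeR adjusted p = 0.168). The ANGPTL4 fall was not shown to differ from that of the control, with a difference of -0.64 on the log2 scale at 1 µM and a 95% interval of the difference from -1.52 to 0.24 (edgeR adjusted p = 0.599).

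The receptors themselves and other genes of the pathway were read from 3 lists. PPARG, known for adipocyte differentiation, was the most abundant of the 3 receptors at 19.2 to 32.9 TPM, PPARD had 12.1 to 21.5 TPM and PPARA 1.97 to 4.28 TPM. The partner RXRG was at 0 in all libraries, while RXRA and RXRB were expressed. Between 6 and 12 weeks in the control, 5 of 13 tested receptors, partners and coregulators were called (1 higher and 4 lower), 10 of 21 other fatty acid oxidation genes (4 higher and 6 lower) and 10 of 18 other PPAR targets (2 higher and 8 lower), against the 36.6% of all genes given above.

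PPARG had 30.6, 31.98, 30.4 and 29.2 TPM in the 6-week control and 19.99, 21.3, 21.7 and 19.9 TPM in the 12-week control. Its log2 fold change was -0.43 (SE 0.0586, edgeR adjusted p = 6.22e-07), and it fell at the PFOS doses as well, by 0.36, 0.37 and 0.42, with no overlap in any exposure. PPARD fell by 0.30 in the control and by 0.28 to 0.42 at the PFOS doses. The coactivator NCOA1 fell by 0.26 in the control (adjusted p = 0.00283). PPARA was at 3.51, 3.08, 3.39 and 2.91 TPM in the 6-week control and at 2.98 to 3.18 TPM in the 12-week control (adjusted p = 0.668).

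Of the other oxidation genes, the carnitine transporter SLC22A5 fell by 0.37 and the peroxisomal oxidase ACOX3 by 0.26 on the log2 scale in the control. Of the other PPAR targets, G0S2, an inhibitor of the lipase ATGL, had a log2 fold change of -1.34 (edgeR adjusted p = 0.00342, with overlap) and the phosphatase IMPA2 one of -0.59, and the fatty acid-binding protein FABP5 rose by 0.45.

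Under PFOS, 4 genes of these lists were called, all other PPAR targets at 0.1 µM and 6 weeks, of 18 tested. The 18 are the list that held the calls alone. No gene of the other lists, of 14 and 25 genes, and none of the 33 testable members was called there. In that comparison 4.24% of all genes were called. The lipid droplet protein CIDEC had 2.98, 3.12, 3.07 and 3.37 TPM in the control and 1.86, 2.00, 1.99 and 1.73 TPM at 0.1 µM (log2 fold change -0.71, SE 0.207, edgeR adjusted p = 0.0488). The fatty acid transport protein SLC27A4 fell from 12.8 to 14.5 TPM to 10.6 to 11.2 TPM (-0.28, adjusted p = 0.0301), and the thioesterase ACOT7 from 99.1 to 118 TPM to 87.9 to 98.0 TPM (-0.17, adjusted p = 0.0451). PDK2, a pyruvate dehydrogenase kinase, rose by 0.16 (adjusted p = 0.0453), though its TPM values overlapped. CIDEC lost its call in 7 of 11 alternative fits, SLC27A4 in 5 of 12, ACOT7 in 6 of 12 and PDK2 in 8 of 12. CIDEC also had few reads. At 6 weeks the 5 adipocyte genes, CIDEC among them, summed to 27 to 32 reads in the control libraries. They summed to 13 to 21 reads at 0.01 µM, 17 to 19 at 0.1 µM and 18 to 31 at 1 µM. None of the 4 was called in another PFOS comparison, and the receptors were called in none.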

How the data were processed

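RNA of 32 HGrC1 libraries was analysed, 4 for each of 8 groups taken from the sample labels. Per the labels and the study's methods, poly(A) libraries were stranded and sequenced on a DNBSEQ platform. The submitters' processing notes name HISAT2 2.0.4, Bowtie2 2.2.5, RSEM 1.2.8 and GRCh38.p14. The authors deposited RSEM's expected counts per gene without normalization, which were rounded here to whole numbers (92.3% were whole), and TPM values, which correct for length and were used for levels. Deposited FPKM and normalized counts were not used. Of 47137 gene entries, 18583 had values.

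Differences were tested with edgeR 4.0.16 in R 4.3.3 (TMM, its filter on low counts, robust quasi-likelihood, two-sided, Benjamini-Hochberg), in separate fits of 16 libraries for 6 weeks (12836 genes) and 12 weeks (12742), and in a fit of all 32 (12988) for times and interactions. A call was an adjusted p at or under 0.05. Group overlap and exact permutation tests used log2(CPM + 1). DESeq2 and limma were alternatives. The code was tested on simulated data. The labels state that each vial's flask was divided into the 4 groups, so replicate numbers pair the libraries. The mean correlation of same-numbered libraries was 0.0496 to 0.0834 at 6 weeks and -0.0929 to 0.153 at 12 weeks. No 2 of 48 replicate pairs were identical. The members and lists were chosen with earlier results of these data known. Values per library were named for members called in any of 13 comparisons, the 2 lowest p in each PFOS comparison, the highest member of each step and those too low to test. From each pathway list, the 3 genes with the lowest p between times in the control were named, except that a result on the list of other oxidation genes is not reported here. Promoter windows are RefSeq's, at the most upstream start of each gene, and were read with Python.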

Additional observations from a re-analysis of the deposited data

Results flagged for a closer look

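Among 264 groups of 4 libraries (33 members in 8 groups), 8 held a library far from the other 3 in TPM by Dixon's test at 95%, where chance gives about 1 in 20. In the 12-week control, CPT2 was at 15.88 TPM in replicate 1 (the others 17.79 to 17.95), HADHB at 93.32 in replicate 4 (91.74 to 91.98) and ACAA1 at 27.73 in replicate 3 (30.42 to 30.96). In the 6-week control, ECHS1 was at 167.09 TPM in replicate 3 (169.91 to 170.4). At 0.01 µM and 6 weeks, ACADM was at 33.97 TPM in replicate 3 (34.67 to 34.77). At 0.1 µM and 6 weeks, ETFB was at 200.89 TPM in replicate 1 (186.12 to 187.59). At 1 µM, ACAA1 was at 34.82 TPM in replicate 1 at 6 weeks (29.88 to 30.67) and FABP3 at 54.96 in replicate 2 at 12 weeks (44.24 to 44.74). None of the members in these groups was called for PFOS.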

How the results depend on the processing

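Alternatives were DESeq2, RLE normalization, no filter or at least 10 counts in every library, a replicate block, limma on log2(TPM + 1), the compared groups alone, all 32 libraries in one fit, and leaving out each replicate. Of 924 single gene values recomputed, 807 kept their direction and side of the threshold, 107 lost the call, 9 gained it and 1 changed sign. The last was PLIN2 at 1 µM and 12 weeks, with -0.10 on the log2 scale, which ranged from -0.22 without replicate 1 to 0.054 without replicate 3. The number of members called under PFOS stayed 0 except as follows. At 0.1 µM and 6 weeks it was 2 with the replicate block (PLIN2 and UCP2) and 1 with the compared groups alone (UCP2). At 1 µM and 6 weeks it was 1 (UCP2) with DESeq2, with no filter, with the replicate block and with the compared groups alone. At 0.1 µM and 12 weeks it was 1 (PLIN2) with all 32 libraries in one fit, and 0 to 1 when a replicate was left out (PLIN2 without replicate 1, adjusted p = 0.0409). For the interaction at 1 µM it was 1 (CPT1C) with limma. The replicate block changed no other PFOS call of a member, but the pairing at 12 weeks is uncertain where correlations were negative.

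Leaving out replicates gave 9 to 13 members called between times in the control (9 without replicate 1) and 8 to 12 at 1 µM (8 without replicate 3), where fewer libraries entered each fit. CPT1A, CPT1C, ACADVL, PLIN2 and ANGPTL4 were called lower in all 4 exposures under every alternative that could be fitted, and HSD17B4, ACSL4 and ACSL5 lost 2, 6 and 3 calls. Of the members called in fewer exposures, SLC25A20 and ACADM kept every call, while ETFA lost 12 of 22 (adjusted p up to 0.319), ACAA2 11 of 22 (up to 0.386), HADH 9 of 22, ECHS1 and ETFDH 10 of 33 each, ACSL1 6 of 33, ACSL3 4 of 22, PDK4 3 of 11, EHHADH 2 of 11, FABP3 2 of 22 and ACADS 1 of 11. Counts over all genes moved more. They ranged over the alternatives from 0 to 6 (main 0), 22 to 739 (544) and 5 to 244 (36) at 6 weeks for 0.01, 0.1 and 1 µM, and from 4 to 540 (136) and 8 to 136 (28) at 12 weeks for 0.1 and 1 µM. The cause was not tested. Low counts limit ANGPTL4 and ACSL5, whose intervals reach beyond 1.5-fold.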
